A study of Mus musculus with 16 samples.

Results

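Entries of a lung expression table are described here, 6 in number: 3 mouse genes tied to lung adenocarcinoma cells (Hmga2, Trp53 and Nkx2-1) and 3 sequences added to the mouse genome by the submitters (CREERT2, RFP and GFP). They were picked by name as a possible measure of tumour content, were selected on earlier results of the same libraries, and make up 6 of the 30095 entries. The libraries were made from lungs of C57BL/6 mice carrying HKP1, a lung adenocarcinoma line of mouse origin with deleted Trp53. Every group carried HKP1 tumours, so a lung without tumour is not among the groups. The groups were 0 Gy plus anti-PD-1 (2 libraries), 0 Gy plus IgG (3), 4 Gy plus anti-PD-1 (3), 4 Gy plus IgG (2), 8 Gy plus anti-PD-1 (3) and 8 Gy plus IgG (3). Anti-PD-1 is an antibody against the checkpoint receptor of T cells, and IgG is its control antibody. Lungs were taken between 24 and 48 hours after irradiation, and each library came from a pool of 3 to 4 mice. The labels and the design text were the sources for this, and the ages of the mice, the schedule of the antibodies and the cells that carry the added sequences are not stated in those sources. Nothing in the labels says whether pools of a group came from separate experiments, and p-values then reflect only how these 16 libraries vary.

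Hmga2 encodes a chromatin protein of the embryo that is silent in most adult tissue and returns in advanced Trp53-deleted lung tumours, where it marks poorly differentiated cells. Nkx2-1 encodes the transcription factor that sets lung identity. It is made by normal alveolar type 2 and club cells as well as by well differentiated tumours, and tumours that lose it turn on genes of stomach and gut. Trp53 encodes p53, the tumour suppressor that stops the cycle after DNA damage. CREERT2 encodes a Cre recombinase fused to the ligand-binding part of the human oestrogen receptor, so that tamoxifen switches it on, and RFP and GFP encode red and green fluorescent proteins. Trp53 and Nkx2-1 are thus also genes of the host lung, and gene-level reads do not show which exons they came from. In a bulk library, fewer cells of a type and less RNA per cell cannot be told apart.

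Hmga2 is the textbook target of let-7, a microRNA family of differentiated tissue whose seed pairs with sites in the Hmga2 3′ untranslated region. The mature let-7a and the 4 matching sites of the Hmga2 transcript are shown because they are what ties Hmga2 to the oncofetal genes described further on. The capitals mark the seed (bases 2 to 8 of the microRNA) and its complement CTACCTC in the transcript. The microRNA is from RefSeq, and the sites were read from mm10 with the GENCODE M21 annotation. All lie on the minus strand, let-7a at chr13:48538239-48538260, and the sites at chr10:120364224-120364246, chr10:120362987-120363009, chr10:120362549-120362571 and chr10:120361691-120361713 in turn.
mmu-let-7a-5p: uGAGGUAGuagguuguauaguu
Hmga2 site 1: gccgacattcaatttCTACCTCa
Hmga2 site 2: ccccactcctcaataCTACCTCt
Hmga2 site 3: ctgatttgcaaggaaCTACCTCc
Hmga2 site 4: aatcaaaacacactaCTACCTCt

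The capitals of the 4 sites begin at bases 58, 1295, 1733 and 2591 of an untranslated region of 3014 bases. On the transcript strand, 2131 of 21153 annotated 3′ untranslated regions hold the motif CTACCTC at least once, which is 10.1%. The untranslated regions of Trp53 (565 bases) and Nkx2-1 (1077 bases) hold no such match. No microRNA was measured, and a match describes the letters only.

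Values are CPM, reads scaled to the total of the library. A single read was worth 0.0155 to 0.0418 CPM across the 16 libraries. Among the anti-PD-1 libraries at 4 Gy, replicates 2 and 3 stood apart from the other libraries, at −81.5 and −98.3 on a first principal component that held 46.7% of the variance, where the other 14 lay between −46.8 and 51.9. Differences of the entries that use the 4 Gy libraries are therefore also given without both. So are counts or medians of listed genes named here where this moved the count by over 1.5 times. The anti-PD-1 4 Gy group then holds 1 library, which is assumed to vary like the other groups. Markers of lung epithelium, vessels, blood and leukocytes were present in every library, as the label lung implies. Marker genes of pigment cells summed to at most 1.78 CPM. The libraries of each dose carry their own run of numbers in the sample names, with a gap between the 0 Gy and the irradiated ones. The labels do not say what these numbers mark. If they mark an order of handling, it cannot be told apart from dose in any comparison of doses.

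The filter on low values, 1 CPM or more in at least 2 libraries, was passed by 5 of the 6 entries and not by GFP. Per kilobase of transcript or sequence, the mean level was 13.2 CPM for Trp53, 11.2 CPM for CREERT2, 9.47 CPM for Nkx2-1, 5.97 CPM for RFP, 4.91 CPM for Hmga2 and 0.0613 CPM for GFP. The entries did not share a pattern. Hmga2 and CREERT2 were both low in the anti-PD-1 4 Gy group, Nkx2-1 was highest there, RFP overlapped between all 6 groups, and Trp53 ran against Hmga2.

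**Figure D1:**
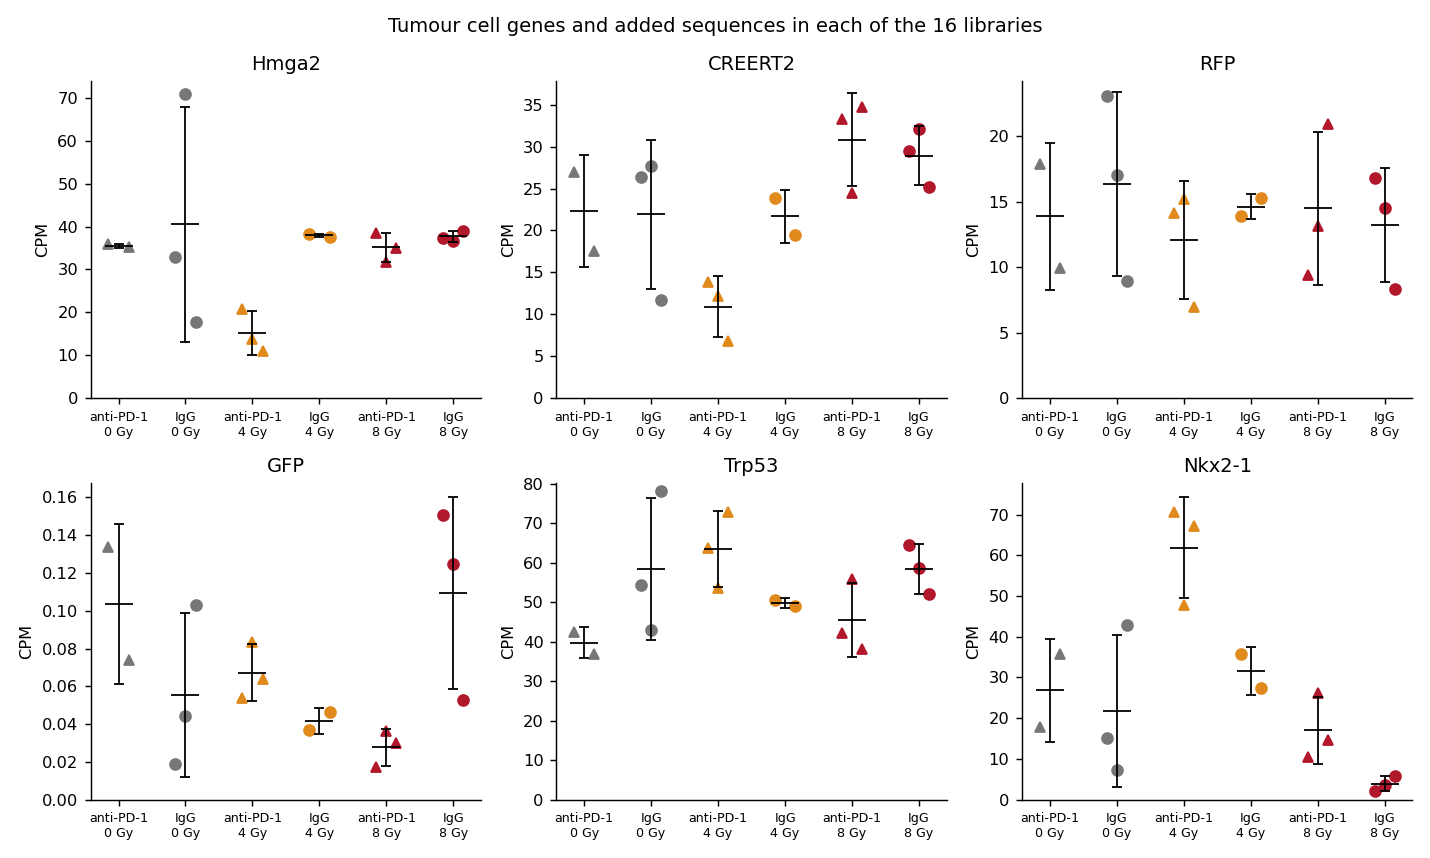
CPM (vertical axes) of the 5 entries above the filter and of GFP in each of the 16 libraries, by group; points are libraries and bars are group means. Hmga2 and CREERT2 are lowest in the anti-PD-1 4 Gy group, with means of 15.2 and 10.9 CPM, and Nkx2-1 is highest there, with a mean of 61.9 CPM.

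Hmga2 (mm10 chr10, 120361275 to 120476469, minus strand) lay in a narrow band in most libraries, with the anti-PD-1 4 Gy group below it. At 0 Gy it had 35.8 and 35.1 CPM with anti-PD-1, and 32.9, 70.9 and 17.7 CPM with IgG. The IgG 0 Gy group thus held both the highest value of all 16 libraries and the lowest outside the anti-PD-1 4 Gy group. At 4 Gy it had 20.9, 13.9 and 10.9 CPM with anti-PD-1, against 38.2 and 37.7 CPM with IgG, and the 2 groups did not overlap. At 8 Gy it had 38.6, 31.8 and 35.02 CPM with anti-PD-1, against 37.4, 36.6 and 39.0 CPM with IgG, and these groups overlapped. The order of the group means was IgG 0 Gy (40.5 ± 27.4 CPM, SD, n = 3), IgG 4 Gy (37.9 ± 0.36, n = 2), IgG 8 Gy (37.7 ± 1.19, n = 3), anti-PD-1 0 Gy (35.5 ± 0.50, n = 2), anti-PD-1 8 Gy (35.1 ± 3.36, n = 3) and anti-PD-1 4 Gy (15.2 ± 5.13, n = 3). Among neighbours in this order, IgG 8 Gy and anti-PD-1 0 Gy were apart by a narrow margin, and anti-PD-1 8 Gy and anti-PD-1 4 Gy were apart by a wide one; the other 3 pairs overlapped.

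Differences were taken on log2(CPM + 0.5), where low entries appear to change less than they did. The fitted difference of Hmga2 between anti-PD-1 and IgG at 4 Gy was −1.34 ± 0.39 (SE), and −0.85 ± 0.52 without the outlying libraries. At 8 Gy the same difference was −0.10 ± 0.35. The 4 Gy minus 0 Gy difference was −1.25 ± 0.39 with anti-PD-1 and 0.13 ± 0.39 with IgG, and the first less the second was −1.37 ± 0.55. Without the outlying libraries the first was −0.75 ± 0.52, and the first less the second was −0.88 ± 0.65. Over both antibodies it was −0.56 ± 0.28, and −0.31 ± 0.32 without the outlying libraries. Over both antibodies the 8 Gy libraries were 0.05 ± 0.26 above the 0 Gy libraries and 0.61 ± 0.26 above the 4 Gy libraries, or 0.36 ± 0.31 without the outlying libraries. The annotated span of Hmga2 overlaps that of 1700006J14Rik on the other strand, which had 0.63 to 2.07 CPM. Without strand, reads of the pair cannot be told apart.

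CREERT2 (an added sequence of 2037 bases) was lowest in the same group as Hmga2, anti-PD-1 4 Gy, and had its highest group means at 8 Gy. At 0 Gy it had 27.02 and 17.6 CPM with anti-PD-1, and 26.4, 27.7 and 11.6 CPM with IgG. At 4 Gy it had 13.8, 12.1 and 6.80 CPM with anti-PD-1, against 23.9 and 19.5 CPM with IgG. At 8 Gy it had 33.3, 24.5 and 34.7 CPM with anti-PD-1, against 29.5, 32.2 and 25.2 CPM with IgG. By group mean the anti-PD-1 8 Gy group was highest, at 30.8 ± 5.53 CPM, and the anti-PD-1 4 Gy group lowest, at 10.9 ± 3.67 CPM (SD, n = 3 each). The only neighbours in that order without overlap were IgG 4 Gy, at 21.7 ± 3.13 CPM (n = 2), and anti-PD-1 4 Gy.

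All 6 libraries at 8 Gy (24.5 to 34.7 CPM) lay above all 5 at 4 Gy (6.80 to 23.9 CPM) for CREERT2. The fitted 8 Gy minus 4 Gy difference was 0.95 ± 0.24 on the log2 scale, and 0.76 ± 0.26 without the outlying libraries. It was 1.497 ± 0.315 with anti-PD-1, or 1.11 ± 0.41 without the outlying libraries, and 0.41 ± 0.35 with IgG. Against 0 Gy the 8 Gy libraries were 0.48 ± 0.24 higher and overlapped them, and for the 4 Gy libraries the difference was −0.47 ± 0.25, again with overlap, or −0.28 ± 0.27 without the outlying libraries. The anti-PD-1 minus IgG difference was −1.01 ± 0.35 at 4 Gy, or −0.62 ± 0.44 without the outlying libraries, and 0.08 ± 0.32 at 8 Gy.

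RFP (an added sequence of 2362 bases) showed no separation between any of the 6 groups. At 0 Gy it had 17.9 and 9.92 CPM with anti-PD-1, and 23.1, 17.01 and 8.98 CPM with IgG. At 4 Gy it had 14.2, 15.2 and 6.93 CPM with anti-PD-1, against 13.9 and 15.3 CPM with IgG. At 8 Gy it had 9.43, 13.1 and 20.9 CPM with anti-PD-1, against 16.8, 14.5 and 8.36 CPM with IgG. Group means ran from 12.1 ± 4.51 CPM with anti-PD-1 at 4 Gy to 16.4 ± 7.06 CPM with IgG at 0 Gy (SD, n = 3 each), and every neighbouring pair overlapped. The fitted differences over doses and antibodies lay between −0.14 ± 0.25 and 0.03 ± 0.30 on the log2 scale, each smaller than its own error. They lay between −0.12 ± 0.34 and 0.01 ± 0.36 without the outlying libraries.

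GFP (an added sequence of 1092 bases) was at the floor of detection. It had 1 to 7 reads per library and 47 reads in all. In 12 of the 16 libraries it had 3 reads or fewer, the floor used here, which covers counting error only. At this depth no level of GFP could be compared between groups.

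The added sequences did not keep a fixed ratio. Per kilobase, the level of RFP was 0.88, 1.08 and 0.88 of that of CREERT2 in the 3 anti-PD-1 4 Gy libraries, and 0.24 to 0.75 of it in the other 13. The anti-PD-1 4 Gy group thus lay above every other library in this ratio. CREERT2 was 13.8, 12.1 and 6.80 CPM in its 3 libraries, and RFP was 14.2, 15.2 and 6.93 CPM. The last of these is also the lowest RFP value of the 16 libraries. By group, the mean ratio at 0 Gy was 0.53 with anti-PD-1 against 0.65 with IgG. At 4 Gy it was 0.95 with anti-PD-1 against 0.59 with IgG, and at 8 Gy 0.41 against 0.39. Per kilobase, CREERT2 was 1.30 times the level of Hmga2 in IgG 0 Gy replicate 2, the lowest of the 16, and 3.30 times in anti-PD-1 8 Gy replicate 3, the highest.

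**Figure D2:**
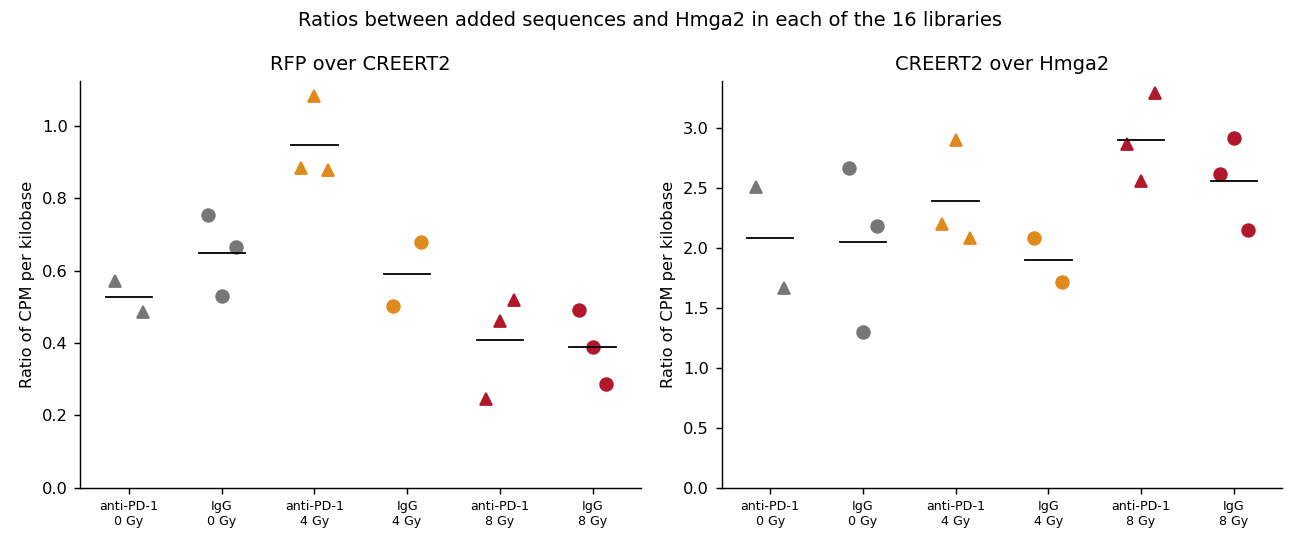
Ratios of per-kilobase levels between the added sequences and Hmga2 (vertical axes) in each library, by group; points are libraries. The RFP to CREERT2 ratio is 0.88 to 1.08 in the 3 anti-PD-1 4 Gy libraries and 0.24 to 0.75 in the other 13.

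Trp53 (mm10 chr11, 69580359 to 69591873, plus strand) varied the least of the 5, over a range of 2.12-fold between the lowest and the highest library, against 5.11-fold for CREERT2, 6.53-fold for Hmga2 and 32.5-fold for Nkx2-1. At 0 Gy it had 42.5 and 36.9 CPM with anti-PD-1, and 54.4, 43.0 and 78.2 CPM with IgG. The highest of these is the same library, IgG 0 Gy replicate 3, that was lowest at 0 Gy for Hmga2, CREERT2 and RFP. At 4 Gy it had 63.7, 53.7 and 72.9 CPM with anti-PD-1, against 50.7 and 49.0 CPM with IgG, with no overlap between these groups. At 8 Gy it had 42.3, 56.0 and 38.2 CPM with anti-PD-1, against 64.6, 58.6 and 52.0 CPM with IgG. By dose alone the means were 51.0 ± 16.5 CPM at 0 Gy (SD, n = 5), 58.0 ± 10.1 CPM at 4 Gy (n = 5) and 52.0 ± 10.01 CPM at 8 Gy (n = 6), and all ranges overlapped. The fitted difference was 0.11 ± 0.15 for 8 Gy minus 0 Gy, 0.24 ± 0.16 for 4 Gy minus 0 Gy and −0.13 ± 0.15 for 8 Gy minus 4 Gy. The last 2 were 0.25 ± 0.19 and −0.14 ± 0.18 without the outlying libraries. The genome also holds a Trp53 pseudogene, which may share reads with the gene.

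Nkx2-1 (mm10 chr12, 56531958 to 56536908, minus strand) varied the most. At 0 Gy it had 17.9 and 35.8 CPM with anti-PD-1, and 15.1, 7.27 and 42.9 CPM with IgG. At 4 Gy it had 70.7, 47.8 and 67.2 CPM with anti-PD-1, against 35.7 and 27.3 CPM with IgG. At 8 Gy it had 10.4, 26.2 and 14.5 CPM with anti-PD-1, against 2.18, 3.66 and 5.85 CPM with IgG. At each irradiated dose, every anti-PD-1 library lay above every IgG library, and at 0 Gy the 2 antibodies overlapped. The share of all genes with such a gap between antibodies was not counted, so nothing is read from it. All 6 libraries at 8 Gy (2.18 to 26.2 CPM) lay below all 5 at 4 Gy (27.3 to 70.7 CPM).

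The order of the Nkx2-1 group means was anti-PD-1 4 Gy (61.9 ± 12.3 CPM, n = 3), IgG 4 Gy (31.5 ± 5.92, n = 2), anti-PD-1 0 Gy (26.8 ± 12.6, n = 2), IgG 0 Gy (21.8 ± 18.7, n = 3), anti-PD-1 8 Gy (17.05 ± 8.21, n = 3) and IgG 8 Gy (3.90 ± 1.85, n = 3), with errors as SD. Only its first and its last pair of neighbours did not overlap. The fitted 8 Gy minus 4 Gy difference was −2.43 ± 0.39 on the log2 scale and −2.53 ± 0.50 without the outlying libraries. Within arms it was −1.91 ± 0.52 with anti-PD-1, or −2.12 ± 0.79 without the outlying libraries, and −2.94 ± 0.58 with IgG. Against 0 Gy the difference was −1.37 ± 0.39 at 8 Gy and 1.06 ± 0.41 at 4 Gy, the second being 1.16 ± 0.52 without the outlying libraries. Between antibodies over all doses it was 1.17 ± 0.32, or 1.24 ± 0.39 without the outlying libraries, with 1.98 ± 0.52 at 8 Gy.

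**Figure D3:**
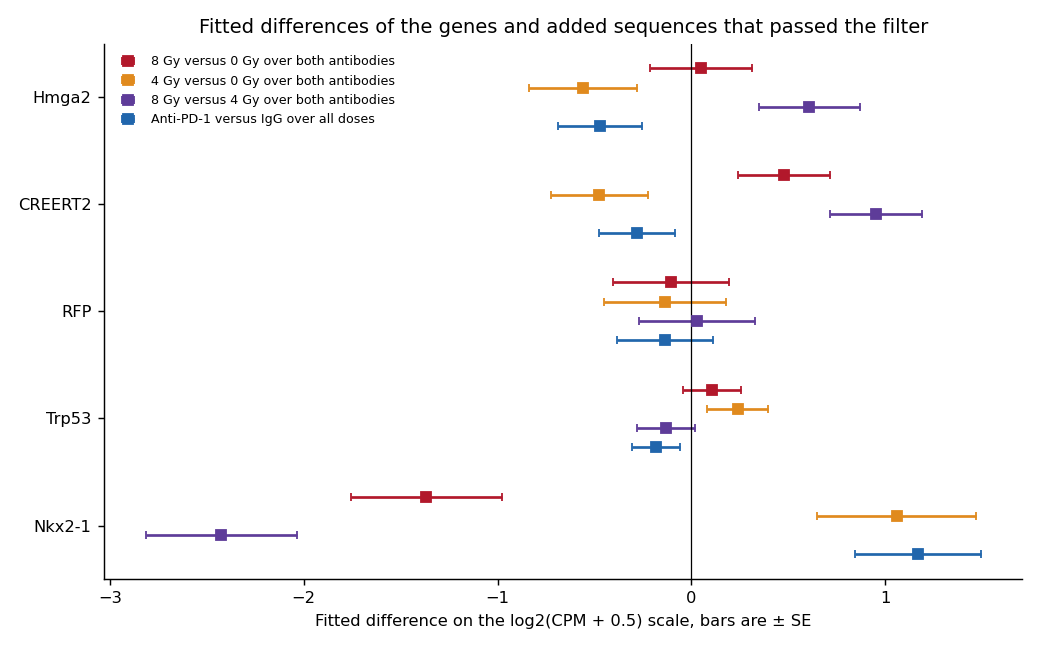
Fitted differences on the log2(CPM + 0.5) scale (horizontal axis) of the 5 entries above the filter, in the 4 comparisons, with bars of ± 1 SE over 16 libraries. Nkx2-1 spans from −2.43 for 8 Gy minus 4 Gy to 1.17 for anti-PD-1 minus IgG, and every bar of RFP crosses 0.

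At an adjusted p threshold of 0.05 (limma, Benjamini-Hochberg over the 17546 genes tested), CREERT2 was among the 17% of genes called higher and Nkx2-1 among the 17.2% called lower at 8 Gy than at 4 Gy. Without the outlying libraries these differences were 0.76 ± 0.26 for CREERT2 and −2.53 ± 0.50 for Nkx2-1, and the call of CREERT2 was lost. For 8 Gy against 0 Gy, 0 of the 5 were called higher, beside 4.68% of all genes, and 1, Nkx2-1, was called lower, beside 16.1%. That call was lost on dropping IgG 8 Gy replicate 1, anti-PD-1 0 Gy replicate 2 or anti-PD-1 8 Gy replicate 1. At 4 Gy against 0 Gy none of the 5 was called, beside 5.33% of genes called higher and 12.2% lower. Without IgG 0 Gy replicate 3, 1 was called higher and 2 lower, beside 1837 and 3438 of the 17546 genes. Between anti-PD-1 and IgG none of the 5 was called, beside 0.165% of genes higher and 0.0684% lower. There, without IgG 0 Gy replicate 3, 1 was called higher and 1 lower, beside 1091 and 225 of the 17546 genes. Ranges of libraries did not overlap between 8 Gy and 4 Gy for 2 of the 5, beside 12.7% of all genes. Between 8 Gy and 0 Gy and between 4 Gy and 0 Gy, they overlapped for all 5, beside 6.45% and 5.96% of all genes without overlap. No such share was counted for gaps between antibodies within a dose, including those of Hmga2, CREERT2 and Trp53 at 4 Gy. Because the entries were selected with these contrasts known, no p is given for them and nothing is read from the counts.

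The entries can be set against each other over the 16 libraries, as descriptions without a test, since all values of a library share its depth and its cell mixture. Hmga2 and CREERT2 had the closest match, with a Pearson r of 0.86 and a Spearman rho of 0.61 on the log2 scale. Without the outlying libraries r was 0.69, and with the group means removed it was 0.76. That last value pools groups of unlike spread. Hmga2 spanned 17.7 to 70.9 CPM in IgG 0 Gy but 36.6 to 39.0 CPM in IgG 8 Gy. In IgG 8 Gy CREERT2 ran in the opposite order to Hmga2. CREERT2 and RFP had an r of 0.54, which was 0.78 with the group means removed and 0.15 without the 2 libraries farthest from the median of CREERT2. Hmga2 and RFP had an r of 0.41 and a rho of 0.12.

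Nkx2-1 ran against both Hmga2 (r = −0.67, rho = −0.71) and CREERT2 (r = −0.77, rho = −0.87), and without the outlying libraries r was −0.57 and −0.73. Trp53 also ran against Hmga2 (r = −0.62) and CREERT2 (r = −0.57). Nkx2-1 and Trp53 themselves had an r of 0.18 over the 16 libraries, 0.03 without the outlying libraries and 0.62 with the group means removed. The last value pools all groups, and not every group followed it. In IgG 8 Gy Trp53 was 64.6, 58.6 and 52.0 CPM, where Nkx2-1 was 2.18, 3.66 and 5.85 CPM. The 2 anti-PD-1 0 Gy libraries also ran in opposite order for these genes.

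**Figure D4:**
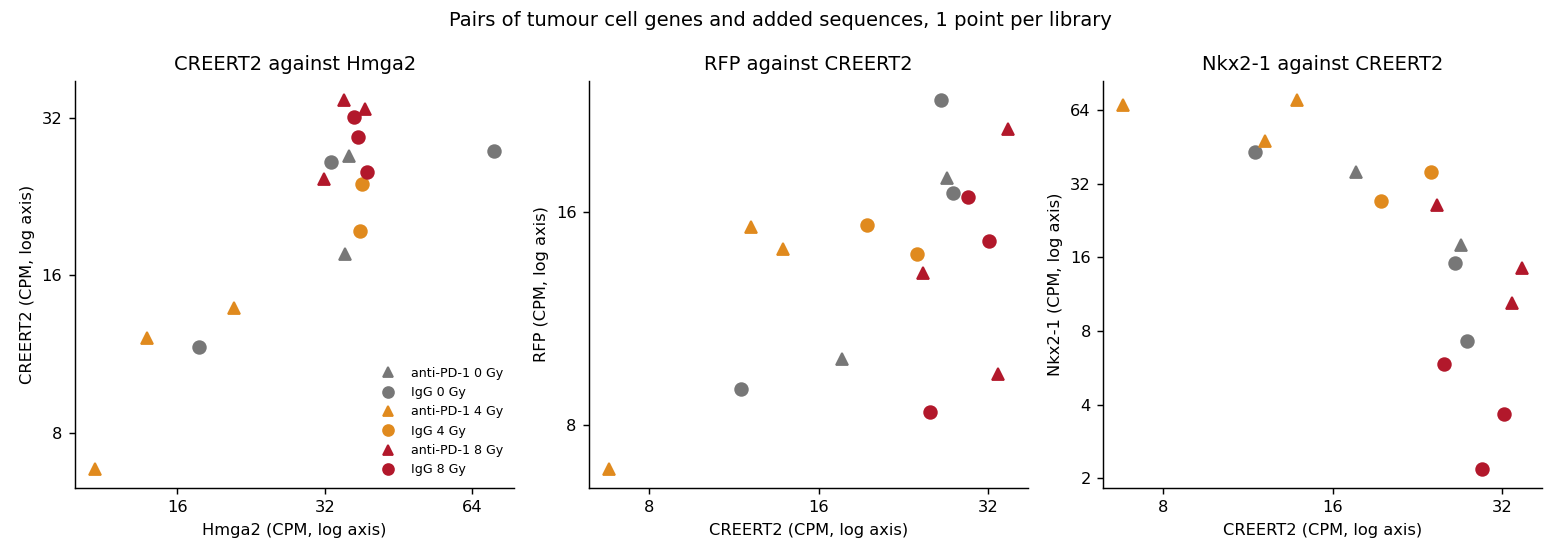
Pairs of entries plotted against each other as CPM on log axes, 1 point per library over 16 libraries, marked by group. The r values are of log2(CPM + 0.5). Hmga2 and CREERT2 lie along a rising band (r = 0.86), and Nkx2-1 lies along a falling one against CREERT2 (r = −0.77).

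For each entry the closest genes of the table were named by r over the 16 libraries, which says nothing of shared function. Hmga2 was closest to Cnksr2 (0.976), Tmem69 (0.969), Btc (0.968), Adam10 (0.967) and Rtn4 (0.962), and farthest from Stk11 (−0.964), Mrpl48 (−0.962) and Cplx2 (−0.962). CREERT2 was closest to Tenm4 (0.934), Rnf219 (0.922), Htr1d (0.922), Vopp1 (0.92) and Stam2 (0.919), and farthest from Syt3 (−0.939), Spata24 (−0.937) and Fxyd7 (−0.931). Nkx2-1 was closest to Plekhd1 (0.977), Pitpnm3 (0.977), Nsun7 (0.974), Snhg18 (0.973) and Ccdc187 (0.970), and farthest from Ndel1 (−0.928), Tfg (−0.917) and Ywhag (−0.915).

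Trp53 was closest to Trpv2 (0.917), Myo1g (0.910), Adora2a (0.908), Gpr132 (0.904) and Cacna1s (0.900), and farthest from Cmc4 (−0.884), Ppa2 (−0.881) and Chrna2 (−0.872). RFP had weaker neighbours: Mrps36-ps1 (0.873), Adamts4 (0.841), Gipc1 (0.833), Lrp5 (0.830) and Rsph3b (0.824), with Scp2 (−0.788), mt-Te (−0.785) and Sap18 (−0.751) at the other end. An r of at least 0.8 in size was found with 16.8% of other genes for Hmga2, 9.16% for CREERT2, 7.77% for Nkx2-1 and 1.35% for Trp53. For RFP it was found with 14 genes. Matches of this size to Hmga2 were therefore common in the table.

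Lists of genes around the roles of these entries, 16 of them with a gene above the filter, were then read, each by how many of its genes passed the test over all genes and by its median beside that of all genes (0.06 for 8 Gy minus 4 Gy, −0.09 for 8 Gy minus 0 Gy and −0.14 for 4 Gy minus 0 Gy, on the log2 scale). The lung lineage genes that depend on NKX2-1, such as surfactant and secretoglobin genes, followed Nkx2-1. Of 16 such genes 13 fell and 0 rose at 8 Gy against 4 Gy, with a median difference of −1.62, and 11 fell without the outlying libraries. Sftpc, surfactant protein C of alveolar type 2 cells, averaged 1116 ± 407 CPM at 8 Gy (SD, n = 6), against 6534 ± 2008 CPM at 4 Gy (n = 5), a fall of −2.52 ± 0.42 (adjusted p = 0.00111). Scgb1a1, the secretoglobin of club cells, fell by 2.58 ± 0.43 (adjusted p = 0.00105). Cldn18, a tight junction gene, fell by 1.89 ± 0.17 (adjusted p = 8.43e-05), and Lpcat1, an enzyme of surfactant lipid, fell by 1.25 ± 0.10 (adjusted p = 3.91e-05).

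The same 16 genes had a median of 1.32 at 4 Gy against 0 Gy, where 12 rose. Leaving out IgG 4 Gy replicate 2 left 3 of these calls, leaving out anti-PD-1 0 Gy replicate 1 left 7, and leaving out both outlying libraries left 2. Against 0 Gy, 3 of 16 fell at 8 Gy, with a median of −0.44; dropping IgG 0 Gy replicate 2 gave 7 falls and dropping IgG 0 Gy replicate 3 gave 5. Of the 16 genes, 15 had a positive r with Nkx2-1 over the 16 libraries, with a median of 0.76. Their median r was −0.59 with Hmga2 and −0.71 with CREERT2, or −0.37 and −0.64 without the outlying libraries.

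The lists of other lung cell markers moved in the same direction. All 12 alveolar type 1 markers fell at 8 Gy against 4 Gy (median −1.85), as did all 11 ciliated markers tested (median −2.20), 12 of 14 endothelial markers (median −1.67) and 11 of 15 epithelial junction and keratin genes (median −1.45). Without the outlying libraries 11, 10, 10 and 9 of these fell. Krt8, a keratin that lung tumours and simple epithelium share, was not among them, with a mean of 668 ± 158 CPM at 8 Gy, against 554 ± 65.7 at 4 Gy and an adjusted p of 0.27. Ager, the receptor of alveolar type 1 cells, fell by 2.92 ± 0.32 (adjusted p = 0.00016). Foxj1, the regulator of ciliated cells, fell by 2.58 ± 0.34 (adjusted p = 0.000335). Pecam1, an adhesion molecule of vessels, fell by 1.26 ± 0.35 (adjusted p = 0.0145), a call lost without IgG 4 Gy replicate 2 and without both outlying libraries. The endothelial list summed to 212 to 802 CPM at 0 Gy, 634 to 1211 CPM at 4 Gy and 229 to 418 CPM at 8 Gy. Median r with Nkx2-1 was 0.88 for alveolar type 1, 0.91 for ciliated, 0.80 for endothelial and 0.75 for epithelial genes. Nkx2-1 is not a gene of vessel cells. The part of normal lung cells in its level was not tested.

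Genes of stomach and gut, which tumours without NKX2-1 turn on, sided with Hmga2 and CREERT2 in their r over the libraries. Of 16 listed, 11 passed the filter, and Hnf4g, Gkn1, Gkn2, Gkn3 and Tff3 never reached 1 CPM. Over the 16 libraries 10 of the 11 had a positive r with Hmga2 (median 0.77) and 10 with CREERT2 (median 0.79), 11 had one with RFP (median 0.63), and 1 had one with Nkx2-1 (median −0.51). Without the outlying libraries the medians were 0.57, 0.58, 0.56 and −0.34. The exception was Tff2, a trefoil peptide of the stomach, at −0.08 with Hmga2 and −0.23 with CREERT2. The intestinal cadherin Cdh17 had an r of 0.93 and the gastric protease Ctse one of 0.92 with Hmga2, and Hnf4a, a regulator of gut and liver identity, had 0.86.

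In level, the gut list summed to 382 to 1113 CPM at 0 Gy, 236 to 770.5 CPM at 4 Gy and 532 to 883 CPM at 8 Gy, and to 236 to 396 CPM in the anti-PD-1 4 Gy group. At 8 Gy against 0 Gy, where Nkx2-1 differed by −1.37 ± 0.39, 0 of the 11 tested were called. Of them 3 were fitted above 0, and the median was −0.14, with or without the outlying libraries. Dropping single libraries gave 0 to 3 falls there and no rise. Of the 11 genes 3 rose and 1 fell at 8 Gy against 4 Gy, with a median of 0.37. Krt20, an intestinal keratin, rose by 0.88 ± 0.21 (adjusted p = 0.00714), Anxa10, a gastric annexin, by 0.85 ± 0.28 (adjusted p = 0.0302), and Ctse by 1.30 ± 0.45 (adjusted p = 0.0395), while Tff2 fell by 1.00 ± 0.34 (adjusted p = 0.0342). All 4 calls were lost without both outlying libraries, where 0 genes were called and the median was 0.23. A single rise was left on dropping any of IgG 4 Gy replicates 1 or 2, IgG 8 Gy replicates 2 or 3, anti-PD-1 4 Gy replicate 3 or anti-PD-1 8 Gy replicates 1 or 3. The call of Ctse was also lost on dropping IgG 8 Gy replicate 1, and that of Tff2 on dropping any of the first 6 of these or anti-PD-1 8 Gy replicate 2. At 4 Gy against 0 Gy 3 of 11 fell (median −0.55), and 8 did on dropping IgG 0 Gy replicate 3. Without both outlying libraries 0 were called and the median was −0.32. The count that fell was 5 on dropping anti-PD-1 4 Gy replicate 1, 0 on dropping IgG 4 Gy replicate 2, and 1 on dropping any other library at 0 or 4 Gy. Krt20 fell there by 1.15 ± 0.22 (adjusted p = 0.0116), a call lost without IgG 4 Gy replicate 2 and without both outlying libraries.

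**Figure D5:**
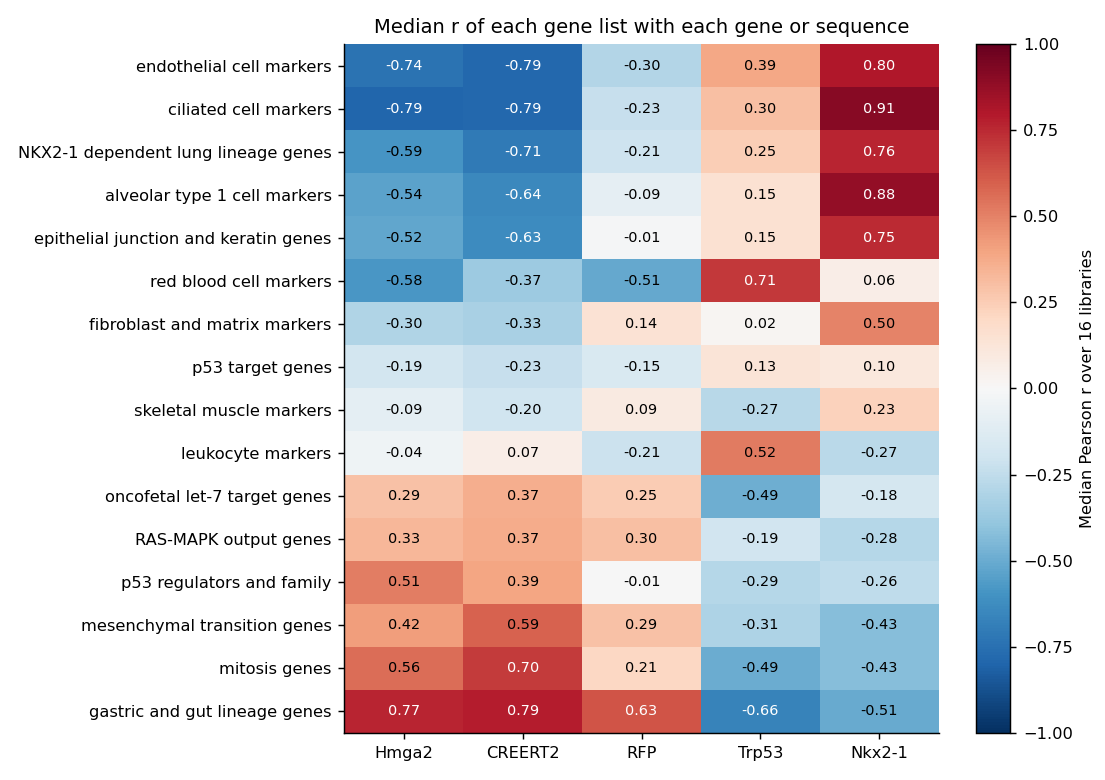
Median Pearson r over 16 libraries of the genes of each list (rows) with each of the 5 entries above the filter (columns), on log2(CPM + 0.5) values. Gut genes have medians of 0.77 with Hmga2 and −0.51 with Nkx2-1, and ciliated markers have −0.79 and 0.91.

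Dividing cells were read from 20 mitosis genes. Of these 15 rose and 0 fell at 8 Gy against 4 Gy, with a median of 0.51, and 12 rose without the outlying libraries. Mki67, the proliferation antigen, averaged 265 ± 43.0 CPM at 8 Gy, against 189 ± 33.5 CPM at 4 Gy, a rise of 0.46 ± 0.11 (adjusted p = 0.00718) that was not called without the outlying libraries (adjusted p = 0.071). Cenpe, a kinetochore motor, rose by 0.64 ± 0.10 (adjusted p = 0.000658), and Tpx2, a spindle factor, by 0.54 ± 0.09 (adjusted p = 0.00079). At 4 Gy against 0 Gy 11 of 20 fell, with a median of −0.52; 0 did on dropping IgG 4 Gy replicate 2 or both outlying libraries, and 6 did on dropping anti-PD-1 0 Gy replicate 2. Between 8 Gy and 0 Gy limma called 0 of 20, with 1 higher and 0 lower at an unadjusted p under 0.05. Median r of the list was 0.56 with Hmga2, 0.70 with CREERT2 and −0.43 with Nkx2-1. These were 0.14, 0.45 and −0.26 without the outlying libraries, and with the group means removed they were 0.19, 0.22 and −0.07. Leukocytes also divide, and their markers had a median r of −0.04 with Hmga2 and 0.07 with CREERT2, or −0.28 and −0.08 without the outlying libraries. At 8 Gy against 4 Gy 4 of 14 leukocyte markers rose and 0 fell, with a median of 0.37. Dropping single libraries gave 1 to 5 rises, and without both outlying libraries the median was 0.26. The part of leukocytes in the level of the mitosis genes was not tested.

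The other oncofetal genes did not move as 1 group with Hmga2. Of 15 listed genes with an annotated 3′ untranslated region, 12 hold the let-7 match, which the list was built for. Of the 13 genes tested 2 rose and 2 fell at 8 Gy against 4 Gy, with a median of 0.08. Plagl2, a zinc finger factor, rose by 0.41 ± 0.09 (adjusted p = 0.00389), and Igf2bp2, an RNA-binding protein of the embryo, rose by 0.40 ± 0.14 (adjusted p = 0.0401). Nr6a1, a germ cell receptor, fell by 0.64 ± 0.15 (adjusted p = 0.00643), and Igf2, the fetal growth factor, fell by 1.06 ± 0.28 (adjusted p = 0.0118). None of these 4 calls held without both outlying libraries, and that of Igf2 was also lost on dropping IgG 4 Gy replicate 2. The call of Igf2bp2 was lost on dropping any of IgG 4 Gy replicates 1 or 2, IgG 8 Gy replicates 1 or 2, anti-PD-1 4 Gy replicates 1 or 3, or anti-PD-1 8 Gy replicates 1 or 3. Lin28b, the blocker of let-7 processing, was at or under 0.156 CPM in every library and was not tested. Hmga1, the close relative of Hmga2, averaged 273 ± 48.6 CPM at 8 Gy, against 272 ± 39.1 CPM at 4 Gy; a near-identical copy, Hmga1b, may share its reads. H19, an imprinted fetal RNA, fell at 8 Gy against 0 Gy by 1.22 ± 0.26 (adjusted p = 0.00423), at levels of 1.21 ± 0.426 against 3.47 ± 1.87 CPM.

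Of 23 genes listed for MAPK signalling and its output, 8 rose and 2 fell at 8 Gy against 4 Gy (median 0.39). Among those that rose were Dusp5 and Dusp6, phosphatases that damp the pathway, at 0.50 ± 0.12 (adjusted p = 0.00625) and 0.39 ± 0.09 (adjusted p = 0.00718). The call of Dusp6 was lost without both outlying libraries. Spry1, another damper, fell by 0.73 ± 0.13 (adjusted p = 0.00133). Leaving out IgG 4 Gy replicate 1 left 4 rises, leaving out IgG 4 Gy replicate 2 left 3, and leaving out both outlying libraries left 2. Of 13 mesenchymal genes 3 rose and 1 fell, again at 8 Gy against 4 Gy (median 0.28). Vim, a filament of mesenchymal cells, rose by 0.39 ± 0.10 (adjusted p = 0.00827), and Snai1, a repressor of epithelial genes, fell by 1.07 ± 0.21 (adjusted p = 0.00228). The call of Vim was lost without both outlying libraries (adjusted p = 0.06), where 1 gene rose, and the count that rose was 7 on dropping anti-PD-1 4 Gy replicate 1.

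Trp53 RNA and the targets of p53 differed in pattern. Of 20 targets, 7 rose and 1 fell at 8 Gy against 0 Gy (median 0.26), and 8 rose at 4 Gy against 0 Gy (median 0.31), or 5 on dropping IgG 4 Gy replicate 2 and 3 without both outlying libraries. Cdkn1a, which encodes the cycle inhibitor p21, averaged 50.7 ± 9.22 CPM at 0 Gy, 195 ± 61.3 CPM at 4 Gy and 160 ± 33.1 CPM at 8 Gy. Its rise was 1.63 ± 0.13 at 8 Gy (adjusted p = 5.09e-05) and 1.81 ± 0.13 at 4 Gy (adjusted p = 2.46e-05), and every alternative kept both calls. Phlda3, an inhibitor of AKT, and Ccng1, a cyclin, rose at 8 Gy by 0.69 ± 0.12 (adjusted p = 0.00211) and 0.82 ± 0.11 (adjusted p = 0.000516). Mdm2, the ligase that degrades p53, rose at 8 Gy by 0.36 ± 0.12 (adjusted p = 0.0489), a call that 15 of 25 alternatives lost. Among these were the fits without any IgG library other than IgG 0 Gy replicate 3, and those without anti-PD-1 0 Gy replicate 1, anti-PD-1 4 Gy replicate 3 or anti-PD-1 8 Gy replicates 1 or 2. The targets had a median r of 0.13 with Trp53, or 0.21 without the outlying libraries.

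Among 14 regulators and relatives of p53, 4 rose and 1 fell at 8 Gy against 4 Gy (median 0.21). The number that rose was 7 on dropping anti-PD-1 4 Gy replicate 1, and 0 on dropping IgG 4 Gy replicate 2 or both outlying libraries. It was 2 on dropping IgG 4 Gy replicate 1, IgG 8 Gy replicate 2, anti-PD-1 4 Gy replicates 2 or 3, or anti-PD-1 8 Gy replicate 1. Atm, the kinase that senses double-strand breaks, rose by 0.60 ± 0.16 (adjusted p = 0.013), and Chek2, a kinase below it, rose by 0.44 ± 0.11 (adjusted p = 0.0104), and both calls were lost without IgG 4 Gy replicate 2 or both outlying libraries. Trp73, a relative of Trp53 that ciliated cells also use, fell by 2.26 ± 0.42 (adjusted p = 0.00193). Cdkn2a, which guards p53 against MDM2, had a mean of 39.9 ± 10.4 CPM at 8 Gy, against 37.1 ± 7.53 at 4 Gy, with an adjusted p of 0.816.

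Trp53 had a positive r with most blood and immune genes, and also with most markers of some other lung cells. All 14 leukocyte markers tested had a positive r with it (median 0.52), as did 6 of 7 red blood cell genes (median 0.71). With Hmga2 these medians were −0.04 and −0.58, or −0.28 and −0.54 without the outlying libraries. All 14 endothelial markers (median 0.39) and 10 of 11 ciliated markers (median 0.30) also had a positive r with Trp53. With the group means removed, the medians with Trp53 were 0.59 for leukocyte, 0.71 for red blood cell, 0.61 for endothelial and 0.64 for ciliated genes. The leukocyte list summed to 1721 to 3927 CPM at 0 Gy, 2373 to 3466 CPM at 4 Gy and 2411 to 4345 CPM at 8 Gy. Of the 14, 3 rose at 8 Gy against 0 Gy, with a median of 0.47, among them Itgam, an integrin of myeloid cells, by 1.05 ± 0.22 (adjusted p = 0.00582), and Csf1r, a receptor of macrophages, by 0.58 ± 0.11 (adjusted p = 0.00506); the call of Csf1r was lost in an additive model. Red blood cell genes, of which all 7 rose at 8 Gy against 0 Gy (median 1.70), summed to 6482 to 22297 CPM at 8 Gy, against 1961 to 21927 CPM at 0 Gy. The number that rose was 4 on dropping anti-PD-1 8 Gy replicate 2, 0 on dropping anti-PD-1 0 Gy replicate 2, 2 on dropping IgG 8 Gy replicates 2 or 3, and 1 on dropping IgG 0 Gy replicate 1, anti-PD-1 0 Gy replicate 1 or anti-PD-1 8 Gy replicate 1. The fitted 8 Gy minus 0 Gy difference of Trp53 itself was 0.11 ± 0.15. The part of immune, blood and other lung cells in the level of Trp53 was not tested.

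Other markers of the lung moved with dose as well. Of 12 fibroblast and matrix genes 7 fell at 8 Gy against 4 Gy (median −0.59) and 7 fell at 8 Gy against 0 Gy (median −0.71). The first count was 4 without both outlying libraries, and the second was 4 on dropping anti-PD-1 0 Gy replicate 1. Their median r was −0.30 with Hmga2 and 0.50 with Nkx2-1, or −0.14 and 0.52 without the outlying libraries. Of 7 skeletal muscle genes tested, 6 fell at 8 Gy against 0 Gy (median −1.66), with sums of 6.56 to 13.7 CPM at 8 Gy and 14.02 to 48.3 CPM at 0 Gy.

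Between antibodies the lists gave few calls with all libraries. Limma called 0 genes between anti-PD-1 and IgG in 14 of the 16 lists, and 1 in each of the leukocyte and muscle lists. These counts turned on single libraries. Without IgG 0 Gy replicate 3, 8 of 11 ciliated, 4 endothelial, 3 NKX2-1 dependent, 3 epithelial and 5 muscle genes were called higher and 4 leukocyte markers lower, with 1 or 2 calls in each of 7 other lists. Without anti-PD-1 8 Gy replicate 1 the calls were 4 ciliated, 3 epithelial, 3 muscle and 2 NKX2-1 dependent genes higher and 2 leukocyte markers lower. Without anti-PD-1 4 Gy replicate 1 they were 4 epithelial, 5 muscle and 1 ciliated gene higher and 5 leukocyte markers, 1 mesenchymal and 1 oncofetal gene lower. Both single calls were lost without both outlying libraries and on dropping any one of the other 13 libraries except IgG 0 Gy replicate 2. At an unadjusted p under 0.05, 9 of 11 ciliated markers were higher and 0 lower with anti-PD-1 (median 0.96), and 3 of 16 NKX2-1 dependent genes were higher and 0 lower (median 0.15). In the gut list 0 of 11 were past that p in either direction. Itgax, an integrin of dendritic cells and macrophages, fell by 0.56 ± 0.10 with anti-PD-1 (adjusted p = 0.0374), a call that 15 of 24 alternatives lost. Among these were the fits without IgG 0 Gy replicate 1, any IgG library at 4 or 8 Gy, any anti-PD-1 library at 0 Gy, or replicates 2 or 3 of the anti-PD-1 groups at 4 and 8 Gy.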

How the data were processed

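Messenger RNA of tumour-bearing lungs was measured in 16 libraries of 6 groups. Per the labels' protocols, 1 µg of total RNA went into each TruSeq RNA library. Per the submitters' processing notes, STAR and Partek were used on mm10. Versions, annotation and strand setting are not given there. The deposited values are CPM, to which the authors had added 1e-04, and summed to 866770 to 915006 per library. Groups came from the sample titles.

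The added constant was taken off, and log2(CPM + 0.5) was fitted with limma (3.58.1, R 4.3.3) with its trend and robust options, as 6 group means. Genes needed 1 CPM in 2 or more libraries, which 17546 had. A dose comparison is the mean of its differences under anti-PD-1 and under IgG. P-values were adjusted over all genes by Benjamini-Hochberg, and genes under 0.05 were called. The procedure was tested on simulated data.

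The members, the gene lists and the tests were chosen with earlier results of these data known. Text names all members, the 5 closest and 3 farthest genes of each, up to 4 genes per list with the lowest p at 8 Gy against 4 Gy and up to 2 in each other comparison, and a fixed set of 13 genes including Cdkn1a and Mki67, 1 of which is not reported here. Alternatives were other pseudocounts, no filter, quantile normalization, equal medians, an additive model, only the groups compared, a replicate block and leaving out libraries.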

Additional observations from a re-analysis of the deposited data

Results flagged for a closer look

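In 95 sets of 4 to 10 libraries, the gap of the highest or lowest library to its neighbour was set against the whole range; chance alone marks about 1 in 20 such sets. Hmga2 stood out at 70.9 CPM in IgG 0 Gy replicate 2 among the 8 IgG libraries. RFP stood out at 6.93 CPM in anti-PD-1 4 Gy replicate 3 among the 5 libraries at 4 Gy. Sftpc stood out at 8848 CPM in IgG 4 Gy replicate 2 among the 8 IgG libraries. Ptprc, the pan-leukocyte gene, stood out at 340 CPM in IgG 0 Gy replicate 3 among the 5 libraries at 0 Gy.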

How the results depend on the processing

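Counts of genes past the threshold moved by over 1.5 times under some settings. At 4 Gy against 0 Gy the main count of 3076 became 1474 in an additive model, 91 without both outlying libraries, 131 with only the groups compared, and 97 to 5747 with single libraries left out. At 8 Gy against 0 Gy (3640) it ran from 2014 to 4413, and at 8 Gy against 4 Gy (6011) from 3570 to 7431 with single libraries left out and 2200 without both outlying ones. Between anti-PD-1 and IgG (41) it was 0 in the additive model, 0 without both outlying libraries and 0 to 1316 with single libraries left out. The split of higher and lower calls was 822 and 2818 at 8 Gy against 0 Gy, but 1421 and 1764 with quantile normalization and 1568 and 1915 with equal medians; at 4 Gy against 0 Gy it was 935 and 2141, then 1343 and 1061, and 1275 and 798. Libraries of the same replicate number did not deviate together (r −0.55 to 0.44, median −0.10, over 36 pairs), and replicate numbers are not taken to pair samples. For IgG 4 Gy the sample names also hold other numbers, and pairs by those were not checked, so pairing is not excluded. With the replicate block the counts were 3035, 2070, 5543 and 9 in the order 8 Gy against 0 Gy, 4 Gy against 0 Gy, 8 Gy against 4 Gy and anti-PD-1 against IgG. Of 495 alternative values of the members' differences none moved by over 1 SD and 17 turned sign, 16 of RFP and 1 of Hmga2 at 8 Gy against 0 Gy. Of 1683 alternative counts of the lists 317 moved by over 1.5 times, and of 4848 alternative values of called list genes 707 lost the call and 0 turned direction. The cause of these moves was not tested. By read number, GFP alone among the members was near the floor. The outlying libraries had 6210 and 5435 genes without reads, against 2383 to 3987 in the others. A single read was worth 0.0418 and 0.0319 CPM in them. The part of depth in their values was not tested.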
